A study of Mus musculus with 6 samples.

Results

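The clustered protocadherin genes of mouse chromosome 18 were examined in methylated DNA captured from whole lung. Members were chosen by name and position as the RefSeq genes on chromosome 18 (mm10) whose symbol begins with Pcdha, Pcdhb or Pcdhg followed by a further character, which gave 58 of 49943 genes. They form the alpha cluster of 14 genes (36930285 to 37188897), the beta cluster of 22 genes (37264998 to 37521419) and the gamma cluster of 22 genes (37661775 to 37841873). One of the 58, Pcdhgb8, is annotated as a transcribed pseudogene and the others are protein-coding.

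Methylated fragments of lung DNA were pulled down by the methyl-CpG-binding domain of a protein and then sequenced. Peaks are the stretches where such fragments piled up. The 6 libraries came from lungs of mice labelled 12 to 16 months old, 3 wild type and 3 transgenic, given as biological replicates. The transgenic mice carried SPC-DNMTdelta3B/DG, a delta form, as the label has it, of the DNA methyltransferase DNMT3B driven by the SPC promoter, which is active in alveolar type 2 cells, where surfactant protein C is made. The genotype of transgenic replicate 2 is spelled SPC-DNMTdeltaB/DG, and neither the founder line nor the sex of any animal is given. Alveolar type 2 cells are only some of the cells of whole lung, so a change confined to them would be diluted in these libraries. Peak lists hold no expression values, and the tissue label was not checked against marker expression.

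Clustered protocadherins are cell-surface adhesion proteins best known from neurons, where each cell chooses a few of them and so gains an identity that its neighbours can recognise. In the alpha and gamma clusters a row of large variable exons, each with its own promoter, is spliced to shared constant exons at the far end of the cluster, and each beta gene is a separate gene without that constant part. Most variable exons are alternate ones, chosen by a cell at random. The C-type exons Pcdhac1, Pcdhac2, Pcdhgc3, Pcdhgc4 and Pcdhgc5 lie at the far ends and are regulated differently. In neurons DNA methylation at the promoters and variable exons, to which DNMT3B contributes, helps to decide which exons are used, and the insulator protein CTCF binds many of the unmethylated ones. All members read towards the higher coordinates, so the lower coordinate of each gene is the start of its variable exon.

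The locus, a stretch of 1 Mb around the 3 clusters, was densely captured in every library, and more evenly than the lists as a whole. It held 88, 94 and 80 peaks in transgenic replicates 1, 2 and 3 and 71, 83 and 50 peaks in wild-type replicates 1, 2 and 3. Transgenic replicate 2 had the most and wild-type replicate 3 the fewest, and the groups overlapped. The rest of chromosome 18 held 44.9, 43.9 and 29.2 peaks per Mb in the transgenic libraries and 22.3, 41.6 and 10.9 in the wild-type libraries. Peak density in the locus was thus 1.96 times that of the rest of the chromosome in transgenic replicate 1 and 4.57 times in wild-type replicate 3, the smallest and largest of the 6 ratios. The whole list of wild-type replicate 3, with 30640 peaks, was 25.5% as long as the longest list, while its count of peaks in the locus was 53.2% of the largest count. The peaks of the locus were also wide, with a median of 219 to 848 bp over the libraries against 197 to 460 bp for the whole lists. The depth of sequencing is unknown. List length, 30640 to 120349 peaks, stands in for it only in part.

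**Figure D1:**
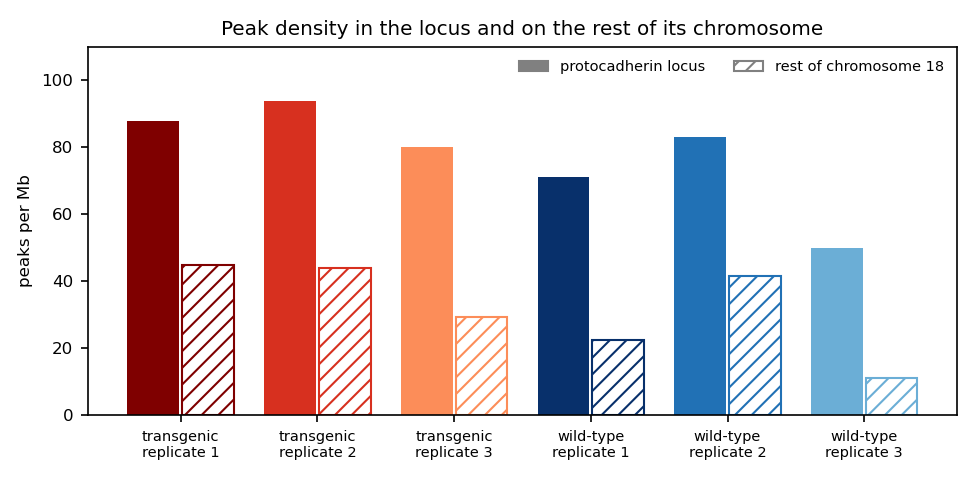
Peaks per Mb (vertical axis) in the protocadherin locus (filled bars) and on the rest of chromosome 18 (hatched bars) for each of the 6 libraries (horizontal axis, transgenic in red tones and wild type in blue tones). The locus bars lie between 50 and 94, and each is above the hatched bar of its own library, which lie between 10.9 and 44.9.

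Capture lay mostly inside the variable exons and less often at their starts. In the first 2500 bp after the gene start, which stands in for the variable exon because exon boundaries were not used here, a peak was found at 53, 52 and 49 of the 58 members in transgenic replicates 1, 2 and 3. The counts were 46, 48 and 29 of 58 in wild-type replicates 1, 2 and 3. Of 17492 other protein-coding genes whose direction was given, 15.6%, 15.3% and 10.2% had a peak in the same window in the transgenic libraries and 7.89%, 15.7% and 3.42% in the wild-type libraries. Among the members 28 of 58 (48.3%) had a peak in this window in all 6 libraries, against 371 of the 17492 other genes (2.12%). No peak in any library was found for 3 members (5.17%) and for 78.5% of the other genes. The window was chosen after the positions of the peaks had been seen, and no test of members against other genes was made. Variable exons resemble each other in sequence, and the treatment of reads that align to several of them is not stated. A peak of one exon can therefore hold reads of another.

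The typical position of the captured stretch was similar in 3 of the subfamilies. The highest-scoring peak of the window had its midpoint at a median of 1521 to 1741 bp after the start for the 12 alternate alpha genes, over the 6 libraries. For the 22 beta genes the median midpoint was at 1789 to 1858 bp, and for the 7 gamma B genes at 1674 to 1833 bp. For the 12 gamma A genes the medians ran from 1045 to 1964 bp. Single genes spread more widely. In transgenic replicate 2 they ran from 1594 to 1828 bp for the alternate alpha genes and from 242 (Pcdhb1) to 1938 bp for beta. There gamma B ran from 1401 to 1911 bp and gamma A from 812 to 2324 bp. The alternate alpha genes spread further in transgenic replicate 1 (1029.5 to 1825 bp) and in wild-type replicate 3 (1396.5 to 2156 bp). At 1550 bp after the start, a peak covered 95.5%, 86.4% and 68.2% of the beta genes in transgenic replicates 1, 2 and 3. In wild-type replicates 1, 2 and 3 it covered 68.2%, 86.4% and 4.55% of them. Of the alpha genes 85.7% were covered there in each library but wild-type replicate 3 (57.1%). At 50 bp after the start, between 0 and 5.17% of all members were covered in the 6 libraries. Other protein-coding genes were covered at 50 bp at 0.48% to 4.23% and at 1550 bp at 0.229% to 3.14%.

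**Figure D2:**
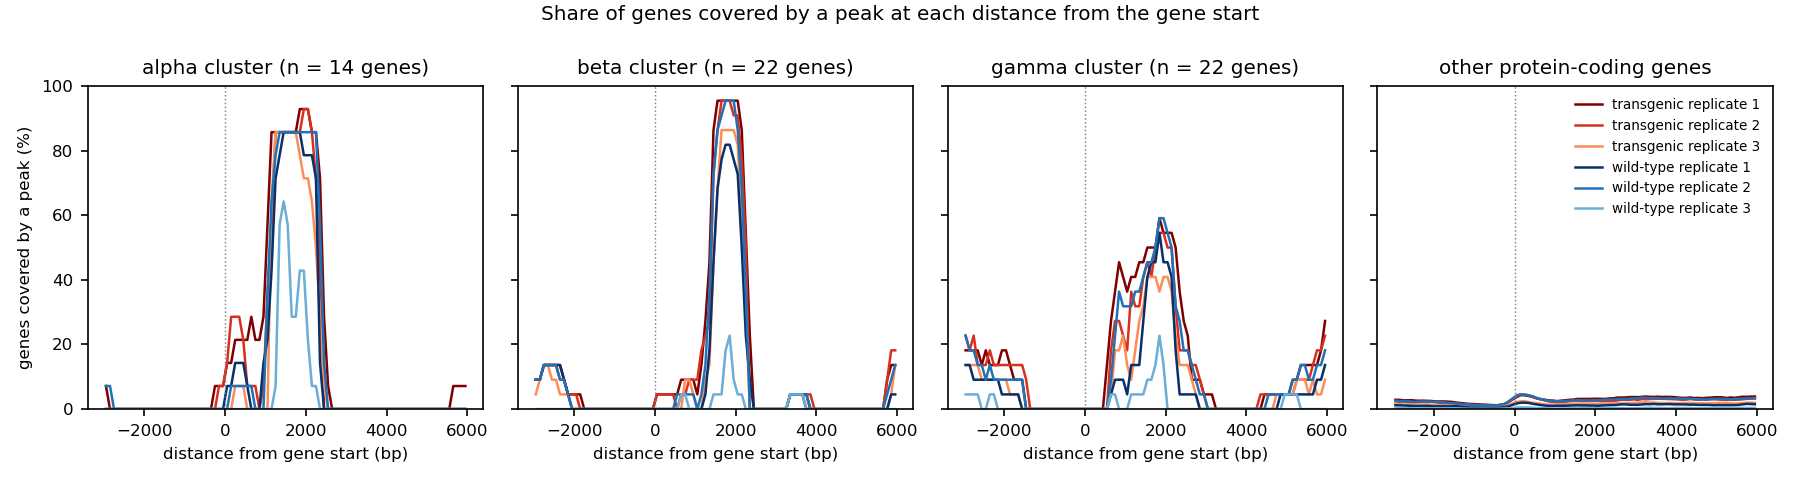
Percentage of genes covered by a peak (vertical axis) at each distance from the gene start in bp (horizontal axis, bins of 100 bp, positive values inside the gene), for the 3 clusters and for other protein-coding genes, with a line for each of the 6 libraries. At 1550 bp the alpha lines stand at 85.7% in 5 libraries and the beta lines between 4.55% and 95.5%, wild-type replicate 3 (lightest blue) being the lowest in both, while at 50 bp no line of these panels is above 14.3%.

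Peaks near the starts were fewer. Within 1000 bp of the start on either side, a peak was found at 20, 15 and 8 of the 58 members in the transgenic libraries and at 6, 11 and 2 in the wild-type libraries. In percent this was 34.5%, 25.9% and 13.8%, and 10.3%, 19.0% and 3.45%, beside 10.3%, 10.5% and 6.5% and 5.12%, 10.7% and 2.27% of the other protein-coding genes in the same libraries. Within 500 bp the members with a peak numbered 5, 5 and 1 in the transgenic libraries and 2, 1 and 0 in the wild-type libraries. Averaged over libraries, the share of members with a peak was then 1.31 percentage points below that of other genes, where it had been 10.3 points above it within 1000 bp. A count of 0 among 58 members leaves the methylation of single CpGs unmeasured, because capture needs several methylated CpGs close together.

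No member had a peak within 1000 bp of its start in all 6 libraries, and 28 of 58 (48.3%) had none in any. Of the other protein-coding genes 1.43% had one in all 6 and 85.0% had none in any, so bare starts were the more frequent among the other genes. The starts with a peak within 1000 bp in the most libraries were those of Pcdhga2 and Pcdhga6, each in 5 libraries. In both genes those peaks had midpoints 734.5 to 1083.5 bp after the start and were the highest-scoring ones of the first 2500 bp. At Pcdhga2 the highest scores within 1000 bp of the start were 342, 130 and 161 in transgenic replicates 1, 2 and 3 and 86.0 and 214 in wild-type replicates 1 and 2. At Pcdhga6 they were 159, 188 and 51.1 in the transgenic libraries and 64.0 and 97.6 in the same wild-type lists. In both genes wild-type replicate 3 had no peak, and the remaining values of the groups overlapped. The score came from the authors' peak calling, was at least 50 in every list and is not scaled between lists, so genes are compared by it only within a library. Pcdhga12 followed with 4 libraries (268, 98.6 and 167 in the transgenic libraries, 106 in wild-type replicate 2). Pcdhgb2 had peaks in transgenic replicate 2 (471) and wild-type replicate 2 (463). Those of Pcdhgb2 were the wide peaks inside the exon, with midpoints 1401 and 1414 bp after the start.

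In the alpha cluster the most often captured starts were Pcdha6, Pcdha1 and the C-type gene Pcdhac1 with 3 libraries each. Pcdha6 scored 1024 and 517 in transgenic replicates 1 and 2 and 310 in wild-type replicate 1, and in Pcdha1 the same libraries gave 1179, 73.6 and 320. Pcdha12 had a start peak in transgenic replicates 1 and 2 only, with scores of 1176 and 846. These high scores belong to the wide peak inside the exon, while the smaller values, such as the 73.6 of Pcdha1, belong to separate peaks beside the start. No start peak was found in any library at Pcdha3, Pcdha4, Pcdha9 and Pcdhac2.

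Of the 22 beta starts 17 had no peak in any library, among them Pcdhb2, Pcdhb3, Pcdhb4, Pcdhb5, Pcdhb6 and Pcdhb7. Pcdhb1, which stands apart from the other beta genes at the near end of the cluster, had one in transgenic replicates 1 and 2 (224 and 84.7) and in wild-type replicate 3 (94.5). Pcdhb19 had one in transgenic replicates 1 and 3 (89.5 and 97.1) and in wild-type replicate 2 (62.8). Pcdhb13, Pcdhb14 and Pcdhb17 each had a start peak in 1 transgenic library. In the gamma cluster 7 of 22 starts had none, namely Pcdhgb1, Pcdhga8, Pcdhga10, Pcdhga11, Pcdhgb8, Pcdhgc3 and Pcdhgc4.

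Inside the variable exon the subfamilies differed in how strongly they were captured. All 12 alternate alpha genes had a peak in the first 2500 bp in all 6 libraries. Their median highest score was 996, 716 and 355 in transgenic replicates 1, 2 and 3 and 240, 540 and 104 in wild-type replicates 1, 2 and 3. The scores were highest in transgenic replicate 1 and lowest in wild-type replicate 3, and transgenic replicate 3 lay below wild-type replicate 2. Within transgenic replicate 1 the 12 genes ranged from 506 at Pcdha8 to 1233 at Pcdha5. Pcdha9 had the highest score of the 12 in wild-type replicate 3, 150, and scored 992, 732 and 334 in the transgenic libraries and 260 and 597 in the other wild-type lists.

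The beta genes were captured in nearly every library at lower scores than the alternate alpha genes. A peak was found at 22, 22 and 21 of the 22 genes in the transgenic libraries and at 20, 21 and 9 in the wild-type libraries. Their median score over the genes with a peak was 368, 321 and 145 in the transgenic libraries and 149, 266 and 73.5 in the wild-type libraries, below that of the alternate alpha genes in each library. Pcdhb4 had the highest score of the 22 in transgenic replicates 1 and 2 (738 and 506), and scored 215 in transgenic replicate 3 and 190, 426 and 61.0 in the wild-type libraries. Pcdhb6, with 207, 135 and 101 in the transgenic libraries and 184 in wild-type replicate 2, lacked a peak in the other wild-type lists. Pcdhb1 was the exception in position as well, since its peaks had midpoints at 513, 242 and 682 bp after the start in transgenic replicates 1 and 2 and wild-type replicate 3.

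In the gamma cluster the genes of the B subfamily were captured more strongly than those of the A subfamily, although the exons of both alternate along the chromosome. The 7 gamma B genes all had a peak in 5 of the libraries, and 5 of 7 had one in wild-type replicate 3. Of the 12 gamma A genes, 9, 8 and 8 had one in the transgenic libraries and 5, 7 and 3 in the wild-type libraries. With a gene without a peak counted as 0, the median score of the gamma B genes was 878, 539 and 254 in the transgenic libraries and 130, 426 and 77.2 in the wild-type libraries. That of the gamma A genes was 83.1, 75.9 and 63.2 in the transgenic libraries and 0, 64.1 and 0 in the wild-type libraries. The gamma B median was higher in 6 of 6 libraries, by 336 on average and by 77.2 to 795 (two-sided exact sign-flip permutation test over the 6 libraries, p = 0.0312, the smallest p that 6 libraries can give). With genes without a peak left out, the difference was 280 on average and ran from 3.96 to 755. The smallest was in wild-type replicate 3, with medians of 82.0 for gamma B and 78.0 for gamma A. This contrast was chosen after the values had been seen, takes the genes as fixed and compares scores within each library. Capture rises with CpG density as well as with methylation, and the CpG density of these exons was not measured here.

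Single genes of the gamma cluster mostly, but not always, followed the order of the medians. Pcdhgb1 scored 1020, 602 and 446 in transgenic replicates 1, 2 and 3 and 105, 612 and 82.0 in wild-type replicates 1, 2 and 3. Its neighbours on either side are gamma A genes. Pcdhga3 scored 123, 114 and 78.3 in the transgenic libraries and 67.2, 159 and 60.1 in the wild-type libraries, and Pcdhga4 had a peak only in transgenic replicates 1 and 2 (78.9 and 83.6). Pcdhgb2 scored 889, 471 and 326 in the transgenic libraries and 200, 463 and 155 in the wild-type libraries, and Pcdhga8, further along, had no peak in any library. The exceptions among the gamma A genes were Pcdhga7 and Pcdhga12, both with a peak in all 6 libraries. Pcdhga7 scored 347, 270 and 126 in the transgenic libraries and 122, 283 and 78.0 in the wild-type libraries, and Pcdhga12 scored 268, 159 and 167 and 128, 141 and 131. Pcdhgb7 scored 346, 228 and 109 in the transgenic libraries and 83.2, 222 and 82.2 in the wild-type libraries, below Pcdhga7 in each library but wild-type replicate 3. In wild-type replicate 1 Pcdhga12 (128) was also above Pcdhgb1 (105), Pcdhgb7 (83.2) and Pcdhgb8 (85.3). It was above every gamma B gene but Pcdhgb2 in wild-type replicate 3 (131 against 155). In transgenic replicate 3 Pcdhga12 (167) was above Pcdhgb7 (109) and Pcdhgb8 (144). The pseudogene Pcdhgb8 had a peak in 5 libraries, with a highest score of 688.

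The C-type genes were the least captured as a group. None of the 5 had a peak in the first 2500 bp in all 6 libraries, against 28 of the 53 other members. The gamma A genes came nearest, with 3 of 12. The median number of libraries with a peak was 2 for the C-type and 3 for the gamma A genes. Pcdhac1 had a peak in transgenic replicates 1 and 2 (123 and 188) and wild-type replicate 1 (58.2). Its midpoint was 379 to 454 bp after the start, nearer to it than in the alternate alpha and gamma genes. The peak of Pcdhb1 lay nearer still in transgenic replicate 2, at 242 bp. Pcdhac2 had one in transgenic replicates 1 and 2 (73.3 and 74.7). Pcdhgc3 and Pcdhgc4 had none in any library. Pcdhgc5 had one in every library but wild-type replicate 3. The highest scores were 163, 106 and 69.9 in the transgenic and 50.9 and 94.4 in the other wild-type libraries. These were not the same peak. The transgenic ones had midpoints 2793.5, 2665.5 and 2487.5 bp after the start, against 1669 and 1802.5 bp in wild type. The nearer region, at 37821015 to 37821734, scored 76.6 and 94.2 in transgenic replicates 1 and 2 and had no peak in transgenic replicate 3. Pcdhac2 thus had peaks only in the longest lists and Pcdhgc5 lacked one only in the shortest, and the part of list length in this was not tested.

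**Figure D3:**
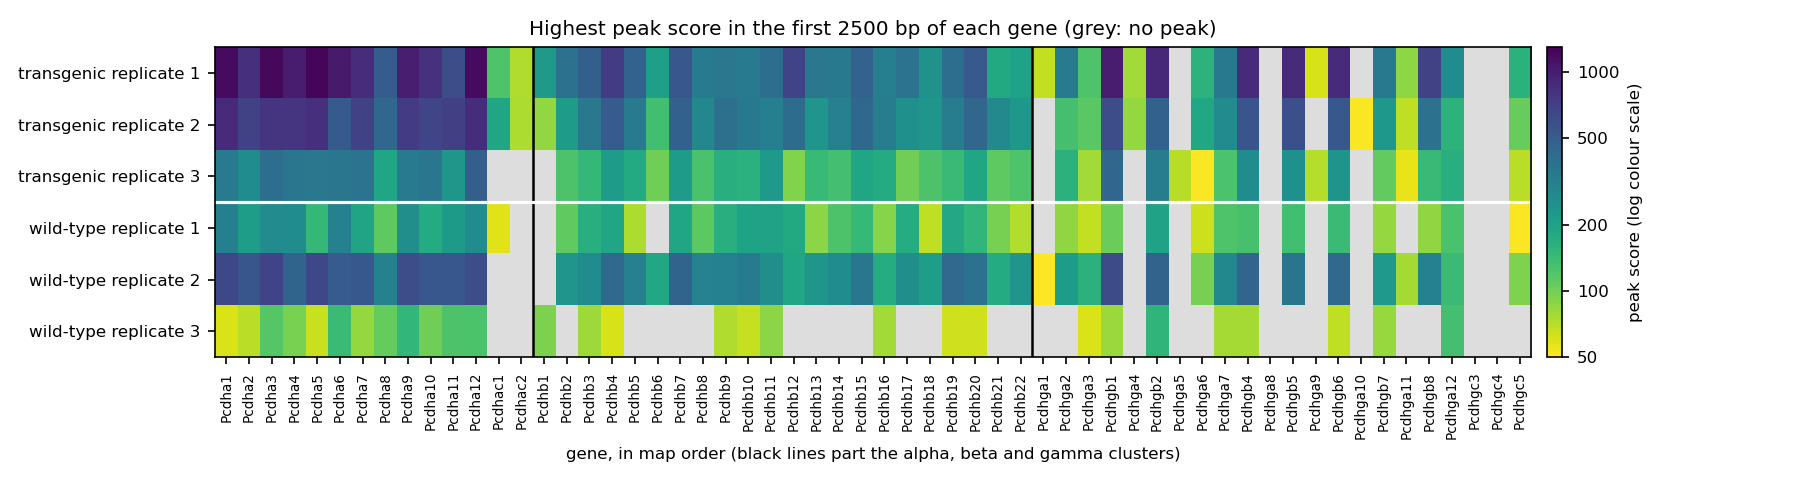
Highest peak score in the first 2500 bp of each of the 58 members (columns, in map order) in each of the 6 libraries (rows), on a logarithmic colour scale from 50, with grey where no peak was found. The alternate alpha genes at the left are filled in all rows, the gamma cluster at the right alternates between dark gamma B and pale or grey gamma A columns, and the row of wild-type replicate 3 has the most grey.

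**Figure D4:**
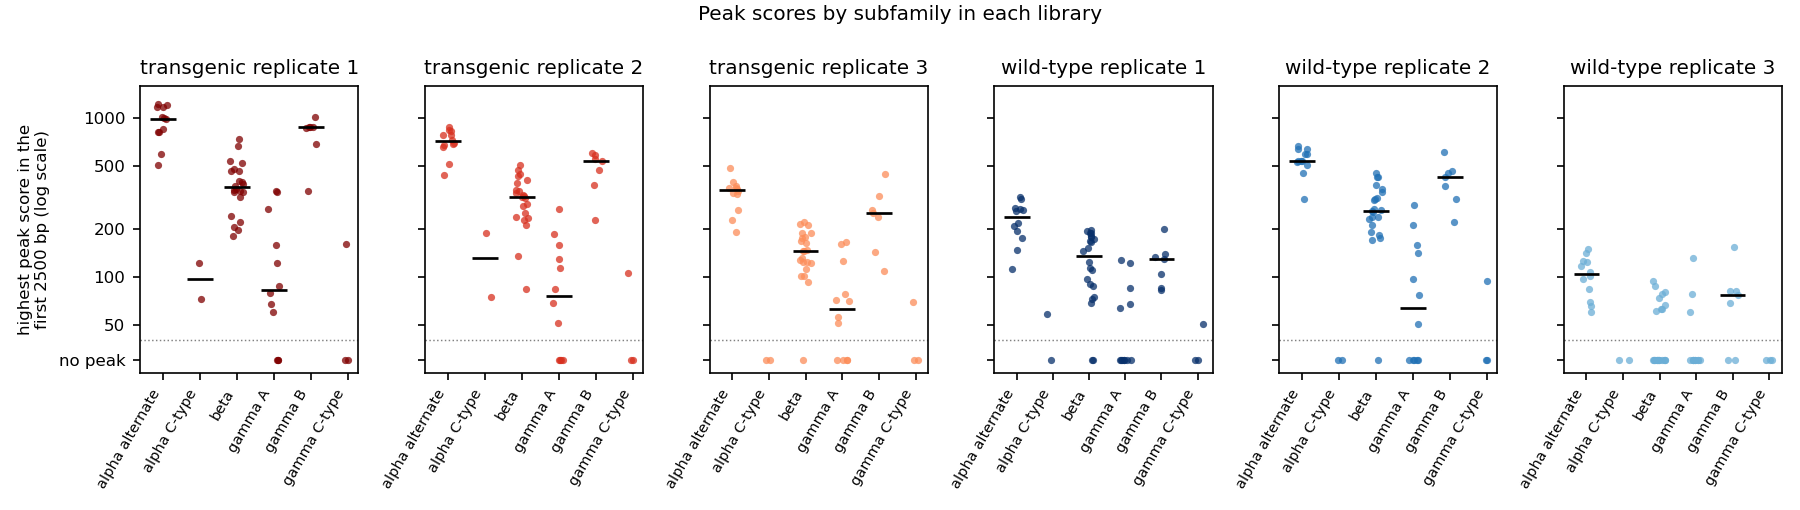
Highest peak score in the first 2500 bp (vertical axis, logarithmic, genes without a peak below the dotted line) by subfamily (horizontal axis) with a panel for each of the 6 libraries. Each point is a gene and a black bar is the subfamily's median, drawn where most of its genes had a peak. In each panel the gamma B bar lies above the gamma A genes' median, from 878 against 83.1 in transgenic replicate 1 to 77.2 against 0 in wild-type replicate 3.

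The transgenic and wild-type lungs were compared first by library values of the locus. The number of peaks was 87.3 ± 7.02 (SD, n = 3) in the transgenic and 68.0 ± 16.7 (SD, n = 3) in the wild-type libraries, and the difference of means had p = 0.20 (exact permutation test, two-sided). An exact permutation test of 3 libraries against 3 cannot go below p = 0.10. Peaks covered 68.7 ± 13.5 kb of the locus in the transgenic and 42.8 ± 27.2 kb in the wild-type libraries (n = 3 each, SD; exact permutation p = 0.20). As a share of each list's peaks, the locus held 0.0851 ± 0.0146% in the transgenic and 0.119 ± 0.0443% in the wild-type libraries (n = 3 each, SD; exact permutation p = 0.30), the opposite direction. Wild-type replicates 1 and 3 had the shortest lists. When each list kept only its 30640 best peaks, the locus held 54.3 in both groups on average (exact permutation p = 1). Whether the difference in the number of peaks reflects list length was not tested further.

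Members with a peak in the first 2500 bp numbered 51.3 ± 2.08 in the transgenic and 41.0 ± 10.4 in the wild-type libraries (n = 3 each, SD). These counts did not overlap between the groups, with 49 as the lowest transgenic and 48 as the highest wild-type count, and the exact permutation p was 0.10, the smallest possible. With lists shortened to that length they were 40.3 and 37.0 (exact permutation p = 0.90), and without wild-type replicate 3 the difference of 10.3 genes was 4.33. By cluster the transgenic and wild-type counts were 13.3 ± 1.15 and 12.3 ± 0.577 of 14 alpha genes (exact permutation p = 0.40), 21.7 ± 0.577 and 16.7 ± 6.66 of 22 beta genes (exact permutation p = 0.20) and 16.3 ± 0.577 and 12.0 ± 3.61 of 22 gamma genes (exact permutation p = 0.10; SD, n = 3 each). Starts with a peak within 1000 bp numbered 14.3 ± 6.03 and 6.33 ± 4.51 (SD, n = 3 each; exact permutation p = 0.20). The median percentile of the locus peaks within their own list, by score, was 81.6 ± 5.54 and 77.1 ± 11.7 (SD, n = 3 each; exact permutation p = 0.70). The family held 15 such comparisons, and the smallest Benjamini-Hochberg adjusted p of these exact permutation tests was 0.375.

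The authors' deposited table of differential regions held 1 region in the locus. It covered 37021136 to 37022605 of chromosome 18 and was higher in the transgenic lungs by 0.39 on the log2 scale (1.31-fold) in the authors' deposited table. The authors' deposited table gives it p = 0.000371 and FDR = 0.0903. The mean log2 concentration was 6.81 in the transgenic and 6.42 in the wild-type libraries in the authors' deposited table. The fold was among the smaller ones, at rank 286 of the 304 higher regions, whose median log2 fold was 0.63 in the authors' deposited table. Of the 77 merged regions of the locus with a peak in 3 or more lists 1 was called (1.3%), beside 407 of 92205 (0.441%) over the whole genome, or 0.33% for regions called higher. One call among 77 is too few to set apart from that background.

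By position this region falls in the stretch taken as the variable exon of Pcdha12, the last alternate exon of the alpha cluster. It begins 906 bp and ends 2375 bp after the start of Pcdha12 (37020230). The authors' annotation places it inside an Ensembl gene whose span, 36930285 to 37187657, is that of Pcdha1, because every alpha gene reaches from its own variable exon to the shared constant exons. That annotation also gives a gene on the opposite strand, 37008869 to 37020679, and places the region 457 bp upstream of where that gene begins. It further gives a CpG island from 37021445 to 37022221 (777 bp) that lies wholly within the region. In the spans of RefSeq the region therefore lies inside each alpha gene from Pcdha1 to Pcdha12, while the only variable exon at that place is that of Pcdha12.

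The peak lists show this region in all 6 libraries. Its score was 1176, 846 and 485 in transgenic replicates 1, 2 and 3 and 266, 600 and 126 in wild-type replicates 1, 2 and 3, so that transgenic replicate 3 lay below wild-type replicate 2 and the groups overlapped. Relative to the median of the 11 other alternate alpha genes in the same library, the score of Pcdha12 was 1.19, 1.21 and 1.38 times as high in the transgenic libraries and 1.21, 1.12 and 1.25 times in the wild-type libraries. These ratios were above 1 in every library and overlapped between the groups. Among the 12 alternate alpha genes Pcdha12 ranked 4, 2 and 1 in the transgenic and 5, 4 and 3 in the wild-type libraries. Since the region was picked by the authors from the same libraries, these values are a description and were not tested.

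No member had a peak in every library of one group and in none of the other. Of the 58 members 0 had a peak in the first 2500 bp in each transgenic library while lacking one in each wild-type library, beside 60 of 17492 other protein-coding genes (0.343%), and 0 of 58 had the reverse (0.00572% of other genes). Around the starts the same counts were 0 and 0 of 58, beside 0.229% and 0% of other genes. Counts of 0 among 58 cannot be set apart from these shares. In fewer transgenic libraries and no wild-type library, the first 2500 bp had a peak at Pcdhac2, Pcdhga4 and Pcdhga9 (2 libraries each) and at Pcdhga5 and Pcdhga10 (1 each), with scores of 51.0 to 83.6. The share of other genes with such a pattern was not counted, and wild-type replicates 1 and 3 had the shortest lists. No difference between the groups is read from these genes. Of the 112 merged regions of the locus 2 had a peak in all 3 transgenic and no wild-type list (1.79%), beside 1.8% of all 166001 merged regions, and 0 had the reverse, beside 0.0145%. Both had scores near the minimum. The region at 36979868 to 36980633, beyond Pcdha7, scored 57.1, 82.9 and 65.0 in transgenic replicates 1, 2 and 3, and the region at 37881282 to 37881659, beyond the gamma cluster, scored 56.2, 54.0 and 52.9.

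The sharing of peaks between libraries is given as a description, without a test. Of the 112 merged regions 37 (33.0%) had a peak in all 6 lists, against 10.9% of all merged regions, and 20 (17.9%) had one in a single list, against 28.4%. In the first 2500 bp of a member lay 69 of the 112 by midpoint, of which 27 were present in all 6 lists. Among regions present in all 6 lists, those of members with the highest lowest score were the regions of Pcdhgb2 (155), Pcdha9 (150) and Pcdha6 (141). The regions of Pcdhb7, Pcdhb15 and Pcdhgb5 had lowest scores of 189, 146 and 135 over 5 lists. They lacked a peak in wild-type replicate 3, the list with the lowest scores, and cannot be ranked beside the others. A region between the beta and gamma clusters, 37630133 to 37631202, had a lowest score of 149 and the highest score of the locus in transgenic replicate 1, 1284. The region at 36988048 to 36989645 (138, in 5 lists) lies in the pseudogene Gm36858 between Pcdha7 and Pcdha8.

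Of 20 protocadherins and related cadherins outside the clusters, 15 had a direction and could be scored. In the first 2500 bp 2 of the 15 had a peak in all 6 libraries, beside 2.12% of all other protein-coding genes. In that window 11 had none in any library, beside 78.5%. Within 1000 bp of the start 14 had no peak in any library, beside 85.0% of other protein-coding genes. The genes captured throughout were Celsr2 and Celsr3, large cadherins of planar cell polarity, while Pcdh7, Pcdh8, Pcdh9, Pcdh10, Pcdh17, Pcdh18 and Pcdh20 had none. Of the 20 genes only Pcdh15, a protocadherin of inner-ear hair cells, had a differential region, for which the authors' deposited table lists a log2 fold of 0.75 (FDR 0.0837). How many of all genes hold such a region was not counted, so nothing is read from this count.

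Among 16 factors known to act on the clusters or on DNA methylation 0 had a differential region. The share of all genes holding such a region was not counted, so this count has no background beside it. Of the 11 whose direction was given, 8, beside 78.5% of other protein-coding genes, among them Ctcf, the cohesin gene Smc3, the chromatin repressor gene Smchd1, Dnmt3a and Dnmt3b, had no peak in the first 2500 bp in any library. Dnmt1 and the cohesin gene Stag1 had one in 4 libraries each, and the X-linked cohesin gene Smc1a in 3. Of 5 effector genes that act downstream of the proteins, none had a differential region, again without a share of all genes beside it. Direction was given only for Wasf1, which had no peak in the first 2500 bp. Of 6 neuronal marker genes 5 had a direction. None had a peak there in all 6 libraries, beside 2.12% of other protein-coding genes. In no library was one found at 2 of them (Map2 and Tubb3), beside 78.5%. Of 6 lung marker genes 3 had a direction, and only Sftpb had a peak there, in 2 libraries. The other 2 had none in any library, beside 78.5% of other protein-coding genes.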

How the data were processed

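The submitters' processing notes name Bowtie, mm10, DiffBind and edgeR without versions. The deposited peak lists, 1 per library, carry a score from the authors' peak calling, not scaled between lists. The peak names are of the kind MACS writes; no settings are recorded. In the authors' deposited table, log2 concentrations and folds stand beside a p-value and FDR, all computed by the authors. Distances in the authors' deposited annotation are in bp. The MethylCap kit was used, per the labels' protocols. Capture depends on CpG density as well as methylation.

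Groups and replicate numbers came from titles. RefSeq (GRCm38.p6) gave the gene spans (all 58 members) and, through its promoter table, strand outside chromosome 18. Alpha and gamma direction follows from the shared gene ends, and beta direction is taken as the same. No sequence of chromosome 18 is printed. Starts in the authors' table are as given, and starts of merged regions are 1-based. Peaks sharing or touching a base were merged across lists. Two-sided exact permutation tests of group means were run in Python 3.11.15, and p-values measure only the spread between these libraries. Scripts were tested on simulated data.

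The members and lists were chosen with earlier results of these data known. Named were members with a differential region, up to 4 starts per cluster with a peak in the most libraries, the C-type genes, up to 6 starts per cluster without a peak, and the 8 merged regions with the highest lowest score. Pcdhgc4 (beyond the 6), other variable exons and single genes of the other lists were named after their values were seen. Alternatives were the 30640 best peaks of each list, a score minimum at the pooled median (96.3), other windows, midpoints, merging within 200 bp, stricter calls, a replicate block and leaving out each library.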

Additional observations from a re-analysis of the deposited data

How the results depend on the processing

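The count of members with a peak near the start depended on the window. Relative to other genes, the share of members was 10.3 percentage points higher within 1000 bp, -1.31 within 500 bp and 66.7 within 2000 bp, since the wider window takes in the peaks of the variable exon. The transgenic minus wild-type difference in the median score percentile of the locus, 4.55, was -3.02 with a score minimum at the pooled median, and -2.09 to 8.96 when single libraries were left out, negative without wild-type replicate 3. That in alpha peaks, 1.33, was -2.33 when each list kept only its 30640 best peaks. Leaving out single libraries gave differences of 10.3 to 26.8 peaks and 11.0 to 37.6 kb in the locus, -0.0556 to -0.0113% of the list, 5.17 to 11.2 starts within 1000 bp and 4.33 to 13.8 members in the first 2500 bp. The lowest values of the peak, kb and member ranges were without wild-type replicate 3. The gamma B minus gamma A score stayed positive, at 244 to 388, with an exact sign-flip permutation p of 0.0625, the smallest that 5 libraries can give. Regions with peaks in the transgenic lists only numbered 0 with lists of that length, and 2 to 6 when single libraries were left out, 6 without transgenic replicate 3 or wild-type replicate 2, which drops a condition of the definition. The locus held 0 of the authors' regions at an FDR under 0.05 or an absolute log2 fold of 1 or more. With the replicate block the difference of 19.3 peaks had an exact sign-flip p of 0.25. That is the smallest that 3 pairs allow, so the block could not have added a call. Deviations from the group means correlated at -0.0254, 0.0291 and 0.118 over regions between same-numbered libraries. Between differently numbered ones the correlations ran from -0.126 to 0.121. The replicate numbers thus gave no sign of pairing, but these values cannot show that the samples were unpaired.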

Other observations

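Other places of the locus were captured in all 6 libraries without being the variable exon of a member. A region just beyond Pcdhb22, from 37521605 to 37522206, scored 1210, 469 and 380 in transgenic replicates 1, 2 and 3 and 127, 249 and 211 in wild-type replicates 1, 2 and 3. Scores are not scaled between lists, so the groups were not compared by them there. Slc25a2, a mitochondrial carrier gene without introns between the beta and gamma clusters, had a peak in 6 libraries, with scores of 377, 388 and 305 in the transgenic and 93.7, 345 and 74.6 in the wild-type lists. Its neighbour Taf7, a general transcription factor gene, had one in 2 libraries only. The pseudogene Gm8242 scored 450, 347 and 300 in the transgenic and 129, 329 and 73.9 in the wild-type lists.

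Within the alpha cluster the pseudogene Gm36858, between Pcdha7 and Pcdha8, held a region at 36980915 to 36982111 that scored 626, 438 and 237 in the transgenic and 110, 356 and 83.0 in the wild-type lists. The stretch between Pcdha12 and Pcdhac1 held a region at 37037643 to 37038426 that scored 716, 558 and 334 in the transgenic and 206, 365 and 91.0 in the wild-type lists. Between Pcdhb8 and Pcdhb9 a region at 37365019 to 37365942, overlapped in the RefSeq table only by the long read-through models Gm37013, Gm38666 and Gm38667, scored 676, 410 and 224 in the transgenic and 146, 408 and 107 in the wild-type lists. Of the pseudogenes inside the locus Gm18150, Gm19035, Gm18529, Gm20162 and Gm24401 had no peak in any library. These regions were chosen after their values were seen, and no difference between the groups is read from their scores.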
